A study of Mus musculus with 2 samples.

Results

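The 46 genes described here encode proteins that carry a cell through mitosis: the cyclins and kinases of mitotic entry, the spindle checkpoint, the chromosomal passenger complex, kinetochore proteins, kinesin motors, condensin, and the enzymes that start anaphase. They were chosen by name from a list, and every probe set whose only gene symbol in the platform annotation was one of these names was taken. This gave 108 of the 45101 probe sets on the array, for 45 of the 46 genes. Ccnb1, the cyclin B1 gene, had no probe set assigned to it alone and was not analysed here. Of the 45 genes, 44 were measured on both arrays and Kif15 lay below the detection floor on both.

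The cells were of the mouse line G1E, erythroid progenitors with no GATA-1 of their own, and both groups expressed ER-GATA-1(V205G), a GATA-1 mutant defective in binding the cofactor FOG-1, made inducible by fusion to an estrogen receptor domain. One group was taken before treatment (0 h) and the other after 24 h with 1 µM estradiol, with 1 array each. Neither untreated cells kept for the same time nor cells lacking the fusion protein were among the samples, so the activated mutant, estradiol itself and time in culture cannot be told apart. With 1 array per group no difference has a replicate check, and none of the values below has a p-value or an SD between cultures.

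Mitotic genes are switched on and off within each division. Their transcripts are low in G1, build up through S phase and peak in G2 and mitosis, so that in an asynchronous culture their level follows the share of cells in those phases. The factors known to drive them include the B-MYB and MuvB complex and FOXM1, and many of their promoters carry a short element near the start site called the cell cycle genes homology region together with CCAAT boxes for NF-Y. In erythroid development GATA-1 is known to slow division as cells mature, and progenitors such as G1E divide rapidly.

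The array values are linear signal intensities. A floor was set at a signal of 95.2, the 50th percentile over both arrays. Probe sets that reached it on both arrays count as measured and are given as log2 ratios, estradiol over untreated. A gene takes the value of its brightest probe set. Different probe sets of the same gene, read on the same pair of arrays, had a pooled SD of 0.25 in log2 ratio over 4586 genes. The SD was 0.22 for genes in the top signal tertile, which held 36 of the 44 measured mitotic genes, and 0.19 over the mitotic genes themselves (80 probe sets of 31 genes). This spread covers probe noise and transcript forms on these arrays, not differences between cultures.

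The mitotic program was read at nearly the same level on both arrays. Signals of the 44 measured genes ran from 893 to 8010 untreated, with a median of 2407, and from 833 to 8098 with estradiol, with a median of 2304. The median over all 10240 measured genes was 805 untreated and 810 with estradiol. None of the 44 genes was at least 2-fold higher, where 2.04% of all measured genes were, and none was at least 2-fold lower, where 1.10% were. At 1.5-fold 0 were higher against 7.11% of all measured genes, and 1, Aurkb, was lower against 4.85%. Among the 3414 genes of the top signal tertile the shares at 2-fold were 1.93% higher and 0.849% lower, and at 1.5-fold 5.33% and 3.49%. The counts of mitotic genes thus did not exceed these backgrounds. In bulk RNA, fewer cells in mitosis and less of a transcript per cell cannot be told apart.

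Small differences lay more often below 0 than above it. Of the 44 genes 29 (65.9%) had a log2 ratio below 0, against 49.9% of all measured genes and 57.9% of those in the top signal tertile. After loess the number was 26 (59.1%), against 50.1% of all measured genes and 50.1% of the top tertile. With a common median for scaling it was 35 (79.5%), against 63.4% and 74.2%. Their median was -0.10, against 0.00 for all measured genes and -0.04 for the top tertile. The SD over the 44 genes was 0.25, smaller than the 0.42 over all measured genes and the 0.39 over the top tertile. Within 1.2-fold lay 31 of them (70.5%), and 67.9% of the top tertile did. Beyond 2 SD between probe sets of genes of like signal, Tpx2 was higher and Aurkb and Bub1b were lower. Of all measured genes 7.72% were higher and 5.95% lower by that rule, and of the top tertile 7.94% and 6.77%, so 1 and 2 of 44 did not exceed the background.

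**Figure D1:**
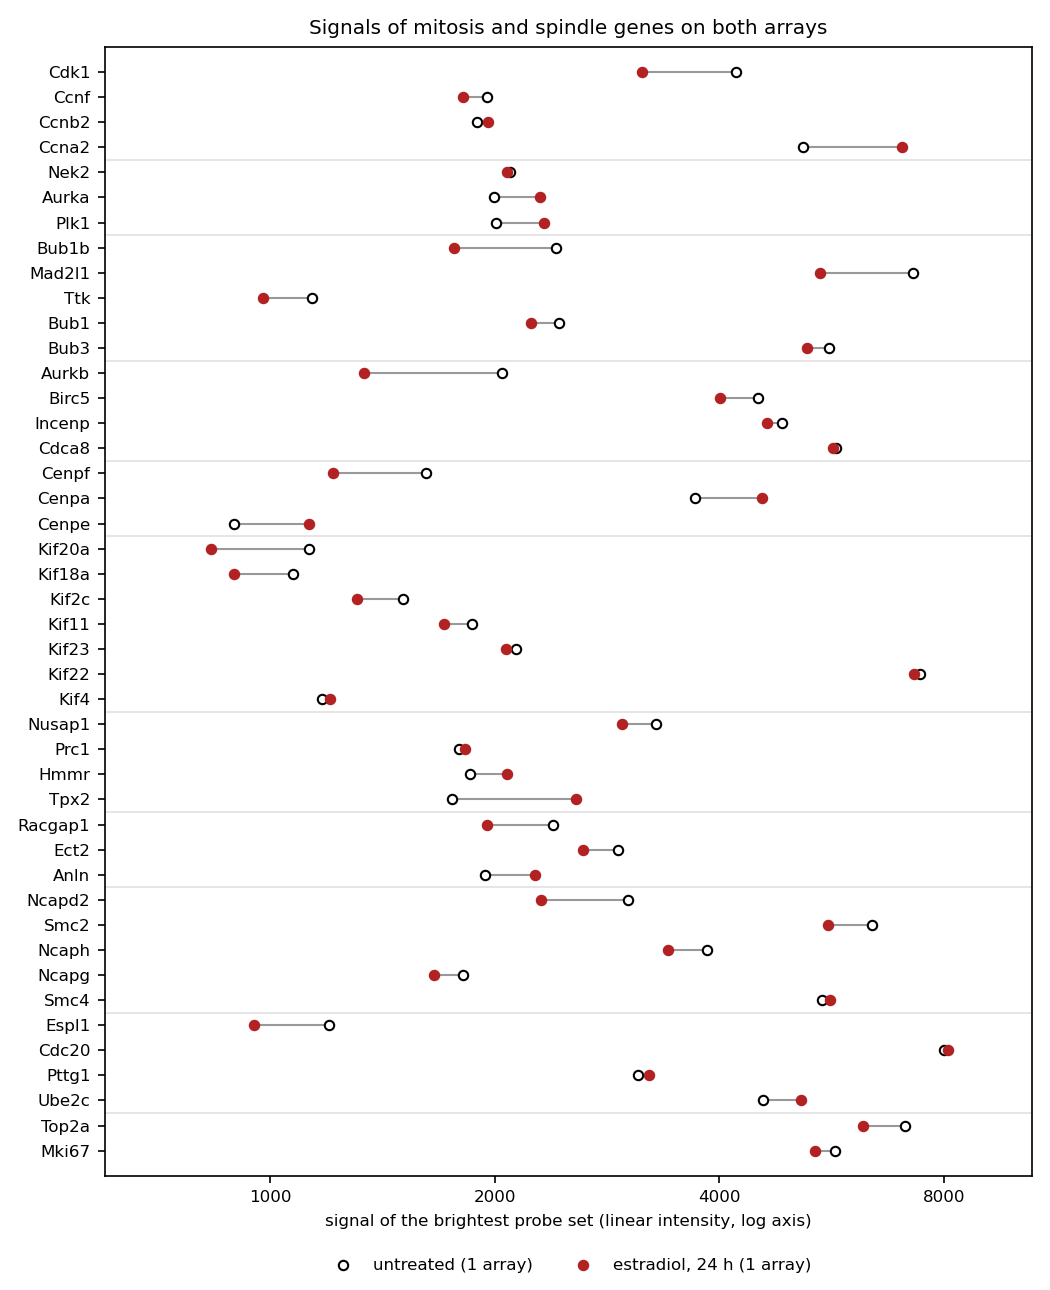
Signal of the brightest probe set (horizontal log axis, linear intensity) for the 44 measured mitosis and spindle genes, grouped by role, with 1 array untreated (open) and 1 array after estradiol (red). Most pairs of points lie close together, and the widest gaps are those of Aurkb (2043 to 1337) and Tpx2 (1752 to 2567).

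Cyclins and their kinase went in both directions. Cdk1, the catalytic kinase of mitotic entry, read 4212 untreated and 3146 with estradiol, a log2 ratio of -0.42. Ccna2, cyclin A2, which partners kinases in S phase and G2, read 5186 and 7033 (0.44), with 0.33 on its other probe set. Ccna2 thus lay just inside the 2 SD limit of 0.44 for bright genes, above 0 on both of its probe sets, while its partner kinase gene Cdk1 lay below 0 on its only one. Ccnb2, cyclin B2, read 1890 and 1958 (0.05). Ccnf, an F-box cyclin that targets proteins for destruction, read 1949 and 1813 (-0.10).

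Of the kinases of centrosome maturation and spindle assembly, Plk1 and Aurka were slightly above 0. Plk1, polo-like kinase 1, read 2006 and 2327 (0.21). Aurka, Aurora A, which builds the spindle poles, read 1995 and 2302 (0.21). Both differences were within 1.2-fold. Nek2, a kinase that splits the centrosome pair, read 2096 and 2078 (-0.01). Tpx2, the microtubule protein that activates Aurora A on the spindle, had the highest ratio of all 44 genes: it read 1752 and 2567 (0.55, or 1.46-fold), and its other probe sets gave 0.36, 0.37 and 0.31. All 4 Tpx2 probe sets were therefore higher with estradiol, the dimmest reading 436 and 542.

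Of the other spindle proteins, Hmmr and Prc1 stood above 0 on every measured probe set. Hmmr, a spindle pole and hyaluronan receptor protein, read 1855 and 2073 (0.16), and its 4 measured probe sets ranged from 0.12 to 0.37. Prc1, which bundles microtubules at the midzone, read 1792 and 1821 (0.02), with 0.10 on its other probe set. Nusap1, which stabilises microtubules near chromosomes, read 3288 and 2965 (-0.15).

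All 5 spindle checkpoint genes were below 0 on their brightest probe set, also under each other scaling. In the top signal tertile 57.9% of genes were below 0, 50.1% after loess and 74.2% with a common median. The checkpoint holds back anaphase until every kinetochore is attached. Bub1b, which encodes the checkpoint inhibitor BubR1, read 2417 and 1761 (-0.46, or 1.37-fold lower), and its second measured probe set read 1767 and 1137 (-0.64). Mad2l1, the Mad2 gene whose product binds Cdc20, read 7262 and 5448 (-0.41). Ttk, the Mps1 kinase at the top of the checkpoint, read 1137 and 979 (-0.22), with -0.01 on its other probe set. Those 3 genes had the lower ratios of the group. Bub1, the kinase that recruits checkpoint proteins, read 2438 and 2238 (-0.12). Bub3, the adaptor of Bub1 and BubR1, read 5617 and 5240 (-0.10), but its probe sets disagree. Its second brightest read 912 and 1340 (0.55), and another read 82.1, below the floor, and 181. The median of the 5 genes was -0.22, and Bub1b was the only 1 beyond 2 SD.

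The chromosomal passenger complex had the gene with the lowest ratio. Aurkb, Aurora B, the kinase that corrects wrong attachments, read 2043 and 1337 (-0.61, or 1.53-fold lower), and its second probe set read 1584 and 1210 (-0.39). The ratio lay at the edge of 1.5-fold: it was -0.58 after loess and -0.50 as the median over both probe sets, each just short of it. Its partners differed less. Birc5, survivin, read 4504 and 4011 (-0.17). Incenp, the scaffold of the complex, read 4860 and 4632 (-0.07), and Cdca8, borealin, read 5733 and 5683 (-0.01). The 4 genes were all below 0, where 57.9% of the top signal tertile were, and had a median of -0.12. After loess or quantile normalization Cdca8 went to 0.04. Thus Aurka and Aurkb, the genes of the Aurora pair, lay on opposite sides of 0. The brightest Aurkb probe set ends in _x_at, a suffix that marks probe sets whose probes can also read other transcripts. So do those of 5 other measured mitotic genes (Cdc20, Incenp, Kif22, Kif2c and Ncaph). The second Aurkb probe set ends in _s_at, a suffix for probes shared by several transcripts. The brightest probe sets of Bub3, Cdca8, Nek2, Prc1 and Pttg1 end in it too.

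Centromere proteins were split. Cenpa, the histone H3 variant that marks centromeres, read 3714 and 4557 (0.30), with 0.85 and 0.03 on dimmer probe sets that read 188 and 338, and 180 and 184. Cenpe, the kinetochore motor that carries chromosomes to the equator, read 893 and 1127 (0.34), with 0.31 on its other probe set. Cenpf, a large kinetochore protein, went the other way, reading 1616 and 1215 (-0.41), with -0.24 and 0.03 on dimmer probe sets. Cenpe is thus the centromere gene whose probe sets lie closest together.

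Kinesin motors were mostly a little lower. Of 7 measured motor genes 6 were below 0, against 49.9% of all measured genes and 57.9% of the top signal tertile. The median of the 7 was -0.12. After loess or quantile normalization Kif22 passed to just above 0, and with a common median Kif4 to below it. Kif20a, needed for cytokinesis, read 1126 and 833 (-0.44), and Kif18a, which dampens chromosome movement, read 1072 and 894 (-0.26), each on 1 measured probe set. Kif2c, the microtubule depolymerase MCAK, read 1506 and 1307 (-0.20), from -0.20 to 0.21 over its 4 probe sets. These were the motors with the larger differences, all short of 1.5-fold. Kif11, the Eg5 motor that separates the poles, read 1861 and 1712 (-0.12), and its 3 probe sets were all below 0. Kif23, the centralspindlin motor, read 2132 and 2071 (-0.04), with 0.08 on its other measured probe set. Kif22, a chromosome-arm motor, read 7423 and 7289 (-0.03), with -0.21 and -0.34 on dimmer probe sets. Kif4 alone was above 0, at 1174 and 1201 (0.03). The Kif15 probe set read 75.4 and 57.3, below the floor, and gives no ratio.

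Condensin I, the ring that compacts chromosomes, was lower in 4 of its 5 genes, and in all 5 with a common median for scaling. Below 0 were 57.9% of genes in the top signal tertile, and 74.2% with a common median. Ncapd2 read 3015 and 2307 (-0.39), with -0.76 on a dimmer probe set that read 439 and 260. Ncaph, the kleisin subunit, read 3844 and 3416 (-0.17), with -0.59 on its other probe set (1456 and 964). For these 2 regulatory subunits the dimmer probe set showed the lower ratio. Smc2, an ATPase subunit, read 6413 and 5592 (-0.20). Its other measured probe sets ran from -0.23 to 0.02, and a dim one read 170 and, below the floor, 82.1. Smc4, the other ATPase subunit, read 5487 and 5624 (0.04). Ncapg read 1813 and 1656 (-0.13), with 0.08 on its other probe set. Top2a, the topoisomerase that untangles chromosomes, read 7096 and 6234 (-0.19) but 528 and 628 (0.25) on a dimmer probe set. Mki67, the proliferation antigen that coats mitotic chromosomes, read 5713 and 5376 (-0.09). The median of the 5 condensin genes was -0.17.

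Of the genes of anaphase onset, Cdc20 and Pttg1 were near 0 on their brightest probe sets. Both changed sign with a common median for scaling. Cdc20, the activator of the anaphase-promoting complex, was the brightest of the 44 and read 8010 and 8098 (0.02), with 0.10 and 0.41 on dimmer probe sets. Ube2c, its ubiquitin-conjugating enzyme, read 4570 and 5143 (0.17). Pttg1, securin, which inhibits separase, read 3111 and 3222 (0.05), from -0.42 to 0.23 over 3 probe sets. Espl1, separase itself, which cuts cohesin, was the lowest of these at 1199 and 951 (-0.33). Among cytokinesis genes, Racgap1, the centralspindlin GAP, read 2396 and 1951 (-0.30, and -0.47 on its other probe set). Ect2, the exchange factor that activates RhoA, read 2922 and 2629 (-0.15). Anln, the scaffold anillin, read 1940 and 2264 (0.22, and 0.11). Thus Racgap1 and Ect2, whose products act together, were below 0 and Anln was above it.

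**Figure D2:**
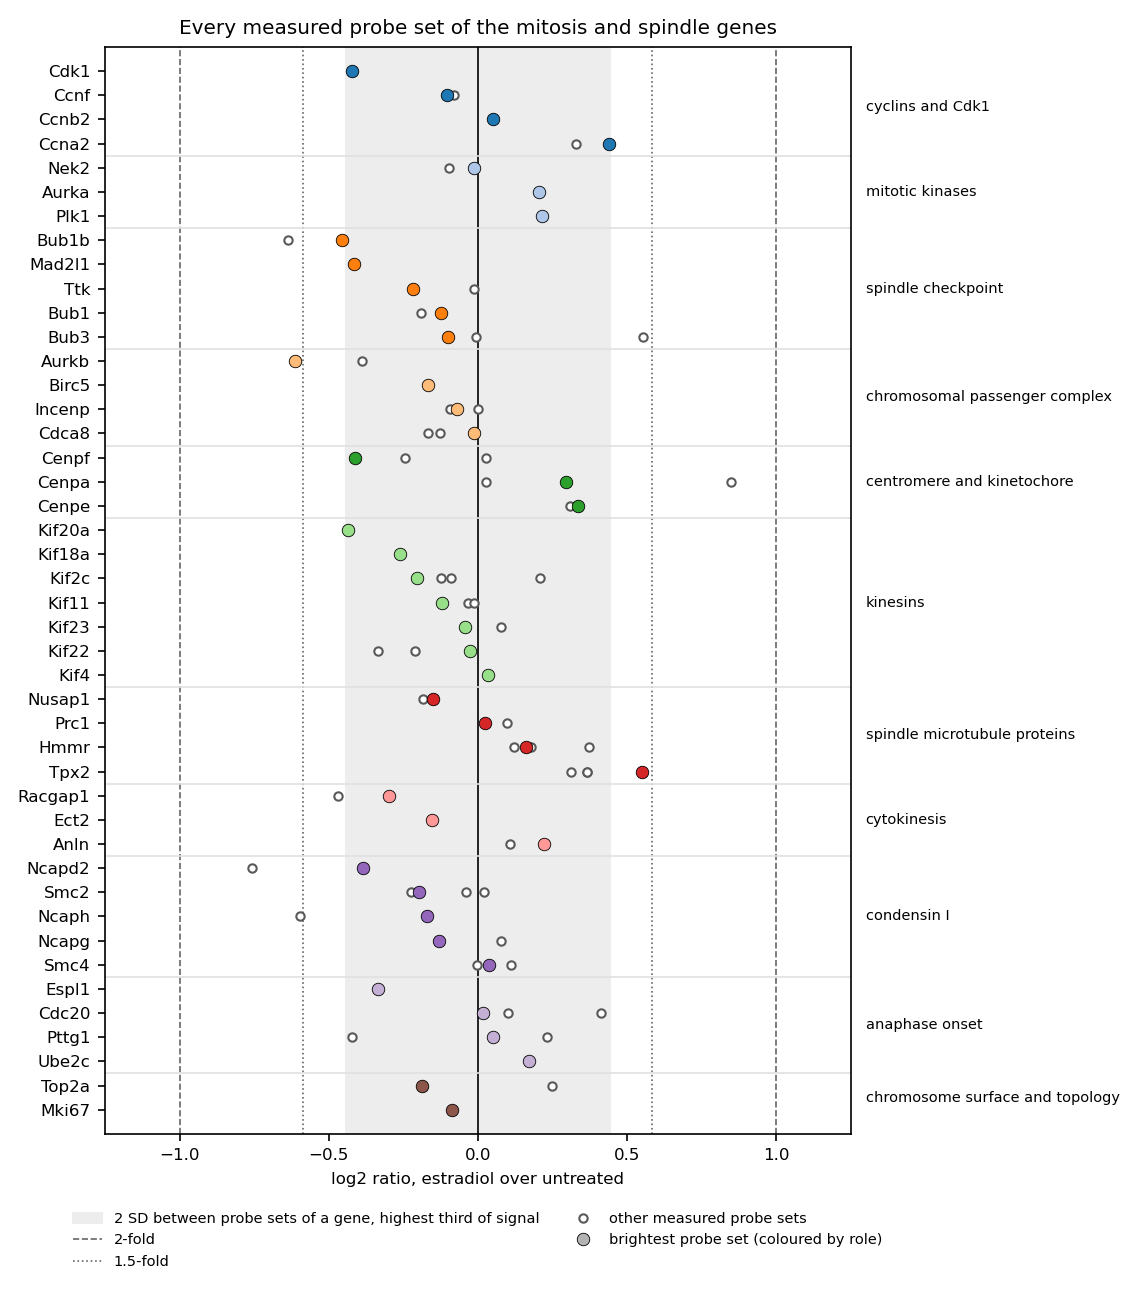
Log2 ratio of estradiol over untreated (horizontal axis) for each measured probe set of the 44 genes, the brightest of a gene filled and coloured by role, the others open. The grey band is 2 SD between probe sets of bright genes (0.44). No point reaches the dashed 2-fold lines, and the filled points outside the band are Tpx2 on the right and Aurkb and Bub1b on the left.

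Of the 108 probe sets 93 were measured. None of the 93 passed 2-fold, where 2.07% of all 18186 measured probe sets with 1 gene symbol were higher and 1.08% lower. At 1.5-fold 1 was higher (a dim Cenpa probe set), against 7.52% of all measured probe sets, and 4 were lower, against 4.88%. Those 4 belonged to Aurkb, Bub1b, Ncapd2 and Ncaph. A further 3 reached the floor only with estradiol and 1 only without, and 11 were below it on both arrays. Over all 93 the median was -0.03, and 54 (58.1%) were below 0, against 48.5% of all measured probe sets. In 31 genes more than 1 probe set was measured. All lay below 0 in 13 of these genes, all above in 8, and on both sides in 10.

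Across those 31 genes the ratio of the brightest probe set and that of the second brightest ran together, with Pearson's r of 0.72 and Spearman's rho of 0.75. This is a description over genes, whose probe sets share both arrays and so any difference between the 2 cultures or the 2 hybridisations. Tpx2, Ccna2 and Cenpe were above 0 and Ncapd2, Bub1b and Aurkb below it on both of these probe sets. The order was not the same on both: Ncapd2 was lowest on the second brightest, and Cenpa and Bub3 were highest. Bub3 lay far from its brightest probe set, with -0.10 and 0.55.

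**Figure D3:**
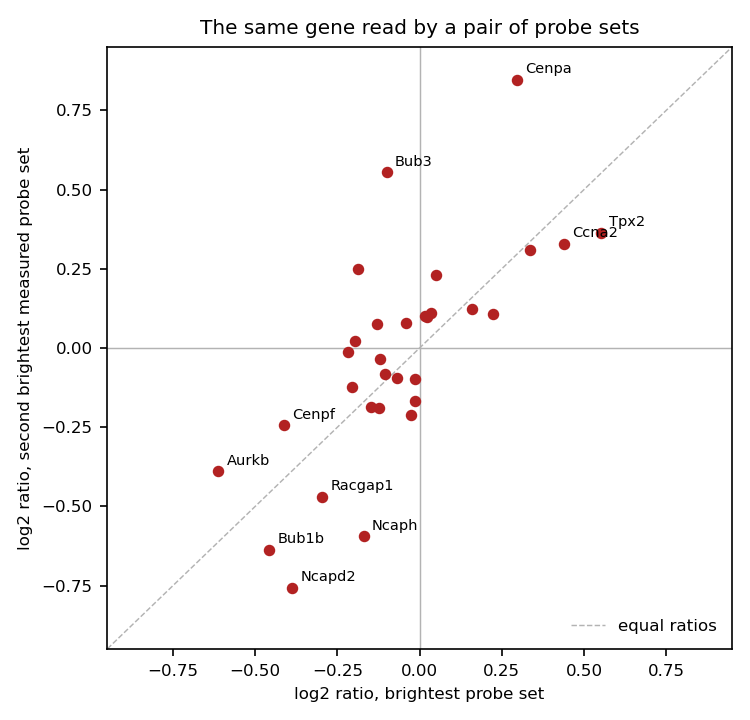
Log2 ratio of the second brightest measured probe set (vertical) against that of the brightest (horizontal) for the 31 mitotic genes with several measured probe sets, 1 point per gene, with a dashed line where both are equal. Points run along the line (r of 0.72), with Bub3, Cenpa and Top2a well above it and Ncaph and Ncapd2 well below it.

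Other genes of cell division had a similar median and a wider range. In 5 further lists of mitotic genes, 121 genes were measured, with a median of -0.11 and ratios from -0.74 to 1.24. Of these 82 were below 0 and 39 above, where 49.9% of all measured genes and 57.9% of the top signal tertile were below 0. At 2-fold 2 were higher and none lower, against 2.04% and 1.10% of all measured genes, so these counts did not exceed the background. Both were in the list of mitotic entry and transcription genes. They were Cdc25b, a phosphatase that activates Cdk1, which read 354 and 834 (1.24), and Lin52, a MuvB subunit, which read 150 and 352 (1.23). By mean signal over the arrays both are dimmer than any of the 44 measured mitotic genes, and each has 1 measured probe set. The lowest of that list was Cdc14a at 200 and 120 (-0.74), with 0.13 on its other probe set, and Melk, a kinase of the same program, had -0.47.

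Foxm1 and Mybl2, genes of factors that drive mitotic transcription, were within 1.2-fold on their brightest probe sets. Foxm1 read 739 and 704 (-0.07) and Mybl2, which encodes B-MYB, read 1539 and 1364 (-0.17), although the lowest of their measured probe sets gave -0.86 and -0.97. Besides Lin52, the MuvB subunit genes had -0.10 (Lin54), 0.08 (Lin37) and 0.24 (Lin9).

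The remaining mitotic lists had medians below 0. The anaphase-promoting complex list (15 measured) had a median of -0.06, with Anapc4 at -0.56, Fzr1, its late-mitotic activator, at -0.51 and Cdc27 at 0.34. The kinetochore list (38 measured) had a median of -0.08, from Nuf2 at -0.40 to Cenpb at 0.50, and none of its genes passed 1.5-fold. Cohesin and condensin II genes (14 measured) had a median of -0.06, from Pds5b at -0.30 to Nipbl at 0.31. Centrosome and spindle genes (31 measured) had the lowest median of these lists, -0.17. Of them 25 were below 0, against 49.9% of all measured genes and 57.9% of the top signal tertile. In that list Cep55, a midbody protein gene, was lowest at -0.61 (0.14 on its other probe set), and Haus2, an augmin subunit gene, highest at 0.59.

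Genes of DNA replication, which takes place in S phase, had a median of -0.14 over 46 measured genes. Of these 35 were below 0, against 49.9% of all measured genes and 57.9% of the top signal tertile. The lowest of the list were Tk1, thymidine kinase (2708 and 1476, -0.88), and Pold1, a polymerase delta subunit (-0.67). The highest was Orc2, an origin recognition subunit (2080 and 4212, 1.02). Genes that hold the cycle back lay more often above 0. The list of kinase inhibitors and growth arrest genes had 15 measured and a median of 0.31. Of the 15 genes 11 were above 0 and 4 below, where 49.9% of all measured genes were below 0. In that list Btg2, an antiproliferative gene, read 363 and 1287 (1.83), and Cdkn1b, the p27 inhibitor of cyclin-dependent kinases, read 607 and 1063 (0.81). Gadd45a (1.21), Ccng2 (0.93) and Gadd45b (0.71, with -0.32 on its other probe set) were the others past 1.5-fold, so that 5 of the 15 passed it, against 7.11% of all measured genes. The 4 genes below 0 were those of the retinoblastoma family and Gadd45g (-0.0063): Rbl1, which encodes p107, was at -0.55 (0.02 on its other probe set) and beyond 2 SD, Rbl2, which encodes p130, at -0.41 and Rb1 at -0.15. Like the members, that list was chosen with earlier results of these data known, so its counts and median are a description and no independent check. The difference between the medians of that list and the mitotic genes was not tested.

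**Figure D4:**
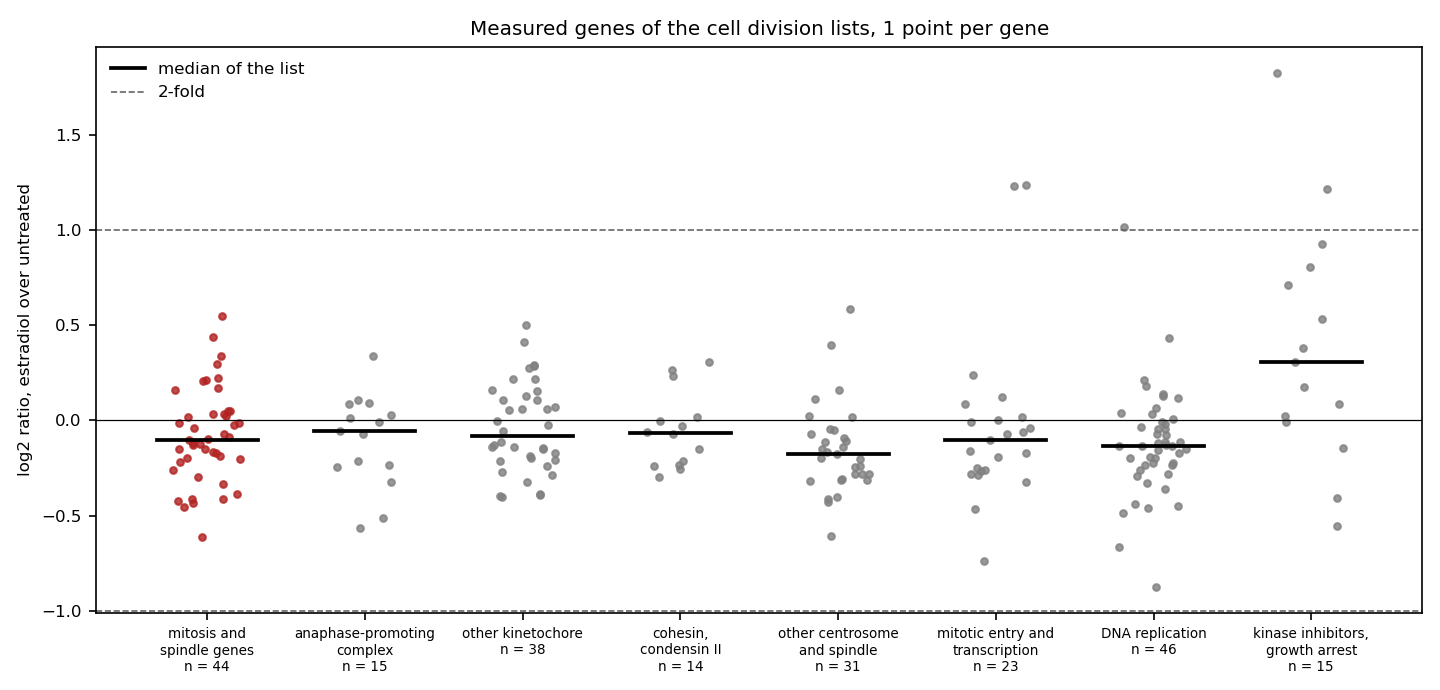
Log2 ratio of estradiol over untreated (vertical axis) for each measured gene of the mitosis and spindle set (red, 44 genes) and 7 other cell division lists (grey), with a black bar at each median. The mitosis and spindle points lie between -0.61 and 0.55 with a median of -0.10, and the growth arrest list has a median of 0.31.

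Most of the promoters searched hold a sequence feature already known for mitotic genes, as described above. The genes were chosen by name and not by this feature, but its shares below are no independent result. RefSeq promoter windows for GRCm38.p6, from 250 bases before the start to 50 after it, matched 40 of the 46 genes by symbol. Aurkb, Ccna2, Incenp, Kif20a, Smc4 and Tpx2 were not matched, so the genes with the lowest and the highest ratio are not among those searched. The letters TTTGAA or TTCGAA of the cell cycle genes homology region, searched on both strands, occurred in 31 of the 40 (77.5%), and in 21.7% of all 27025 genes with a window. CCAAT, the NF-Y box, occurred in 31 (77.5%) and in 41.1% of all genes, and both together in 28 of the 40 and in 9.65%. The E2F letters TTTCGCGC were in 1 of the 40 (0.374% of all genes) and the variant TTTGGCGC in 3 (0.585%). A homology region centred within 50 bases of the start was found in 28 of the 40, and in 6.35% of all genes. A match is a description of the letters and not a measured site.

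The homology regions nearest the start are shown for the 4 lowest and the 4 highest measured genes that have 1 within 50 bases of it, with the 6 letters in capitals and up to 12 bases on each side, to show the element in its surroundings. They were chosen for holding these letters, and their ratios run from -0.46 (Bub1b) to 0.30 (Cenpa). All are read 5′ to 3′ on the gene's strand.
Bub1b: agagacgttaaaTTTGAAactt
Cdk1: taccgcggcgagTTTGAAactgctggcact
Cenpf: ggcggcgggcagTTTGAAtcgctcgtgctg
Espl1: tcactagggataTTTGAAaggaggtgctgg
Aurka: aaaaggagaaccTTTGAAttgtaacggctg
Plk1: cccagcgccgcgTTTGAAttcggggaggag
Anln: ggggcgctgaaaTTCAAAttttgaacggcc
Cenpa: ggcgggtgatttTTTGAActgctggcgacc
These lie at chr2:118598239-118598260 (plus strand), chr10:69352910-69352939 (minus), chr1:189688067-189688096 (minus), chr15:102296254-102296283 (plus), chr2:172370521-172370550 (minus), chr7:122159453-122159482 (plus), chr9:22389168-22389197 (minus) and chr5:30666890-30666919 (plus), in the same order. The Bub1b stretch is shorter because the window ends there. The marked Anln element is on the opposite strand, so that it reads TTCAAA. The Anln stretch also holds TTTGAA on the gene's strand just after the marked element, left in lower case.

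The genes shown were taken from both ends of the ratios for holding these letters. That the letters stand near the start of genes below 0, such as Bub1b, and above it, such as Cenpa, follows from that choice. Measured genes with a homology region in the window had a median log2 ratio of -0.10 (30 genes, 20 below 0), and those without had -0.16 (8 genes, 6 below 0). With a CCAAT box the median was -0.09 (30 genes) and without it -0.17 (8 genes).

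The 250 bases before the start are shown for a low and a high gene, Cdk1 (chr10:69352913-69353162, minus strand) and Cenpa (chr5:30666636-30666885, plus strand), to show how the elements are spaced. Capitals mark the homology region TTTGAA, the NF-Y box CCAAT (which reads ATTGG when on the opposite strand) and the E2F letters TTTCGCGC.
Cdk1: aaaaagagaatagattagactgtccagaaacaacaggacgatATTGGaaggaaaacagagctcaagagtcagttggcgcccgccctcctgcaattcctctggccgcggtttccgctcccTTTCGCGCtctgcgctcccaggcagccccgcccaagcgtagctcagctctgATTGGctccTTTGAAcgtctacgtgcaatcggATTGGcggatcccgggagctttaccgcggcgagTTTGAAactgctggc
Cenpa: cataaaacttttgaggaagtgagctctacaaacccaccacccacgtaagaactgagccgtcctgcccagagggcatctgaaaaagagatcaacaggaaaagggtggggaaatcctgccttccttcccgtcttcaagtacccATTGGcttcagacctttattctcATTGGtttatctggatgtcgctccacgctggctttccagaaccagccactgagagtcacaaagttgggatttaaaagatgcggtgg
Cdk1 held 3 CCAAT boxes, 2 TTTGAA elements and the only TTTCGCGC among the 40 genes. Cenpa held 2 CCAAT boxes, and its TTTGAA lies after the start and is the stretch shown for it above.

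Of the markers of the labelled cell type, all 10 erythroid progenitor genes were measured. Their signals ran from 2516 to 9175 untreated and from 2295 to 10048 with estradiol. Of the 10 genes 5 were above 0 and 5 below, from Tal1 at 5947 and 4026 (-0.56) to Zfpm1 at 3271 and 7485 (1.19). Kit read 6661 and 5948 and Klf1 4554 and 6997. Of 11 neutrophil and monocyte markers with a probe set 7 were below the floor on both arrays, as were 6 of 8 lymphocyte markers and 3 of 7 megakaryocyte markers. Mast cell and basophil markers went in both directions, with 3 of 6 measured genes above 0 and 3 below. The summed signal over all 13 genes was 13779 untreated and 6828 with estradiol. Of these 13, Cpa3 read 6616 and 1146, Gzmb 4260 and 495 and Ms4a2 2093 and 791, each at least 2-fold lower. Tpsab1 was at least 2-fold higher, at 140.0 and 3418, and Mcpt2 (158 and 227) and Cma1 (184 and 210) were higher by less. Tpsb2, Hdc and Slc18a2 reached the floor only with estradiol and Fcer1a only untreated. Mcpt1, Mcpt4 and Mcpt8 were below the floor on both arrays. Their part in the values of the mitotic genes was not tested.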

How the data were processed

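Each deposited value is the linear intensity of 1 probe set, made with Affymetrix GCOS, per the submitters' processing notes (version not given in the sources used here). Their 2% trimmed mean was 500.0 on both arrays. Probe-level files and detection calls were not used here. Both arrays were brought to a common trimmed mean, taken without array controls (factors 0.999941 and 1.000059). Genes were named through the platform annotation: of 45037 probe sets other than controls 34945 probe sets had 1 symbol, 932 several and 9160 none. All 45 members carried the same symbol in RefSeq by Entrez identifier. No test was run, since each group held 1 array, whose number limits the precision. The members, lists and rules were chosen with earlier results of these data known, and the 2 SD rule was added later. The rule for named genes took all members and, of each other list, the 3 highest, the 3 lowest and those past 1.5-fold. Fewer of the latter lists' extremes are printed, to keep to the members, and Foxm1, Mybl2 and the MuvB genes are given for their role. Steps were tested on simulated arrays. Alternatives changed the scaling, the floor or the probe set taken. Python 3.11.15, numpy 2.4.6, pandas 2.3.3, scipy 1.17.1, statsmodels 0.14.6 and matplotlib 3.10.9 were used.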

Additional observations from a re-analysis of the deposited data

How the results depend on the processing

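Under 9 alternatives the median of the 44 mitotic genes stayed below 0 and none of them passed 2-fold. With a common median for scaling, the median of all genes moved to -0.11, and relative to that shift the lists stood much as before: the medians became -0.21 for the mitotic genes, -0.22 for the 5 other mitotic lists, -0.25 for DNA replication and 0.20 for growth arrest genes. With it 4 genes of the other mitotic lists and 1 growth arrest gene were at least 1.5-fold lower, and 0 replication genes were 2-fold higher. After loess the medians were -0.061 for the mitotic genes and -0.089 for DNA replication, 1 mitotic gene (Tpx2, 0.59) was at least 1.5-fold higher, 0 were lower (Aurkb, -0.58), and 1 of the other mitotic lists was lower. With a floor at the 70th percentile 1 gene of the other mitotic lists was 1.5-fold lower and 1 was 2-fold higher, and growth arrest genes had a median of 0.24, with 3 past 1.5-fold and 1 past 2-fold higher. With the median over probe sets 0 mitotic genes and 0 of the other mitotic lists were 1.5-fold lower, and growth arrest genes had a median of 0.20. Taking the probe set brightest without treatment gave growth arrest genes 0.18. The cause of these shifts was not tested. Of the 44 genes 33 kept their sign under every alternative run. The other 11 were Ccnb2, Cdc20, Cdca8, Kif22, Kif23, Kif4, Nek2, Prc1, Pttg1, Smc4 and Top2a, of which Top2a had the largest ratio (-0.19) and Ccnb2 the next (0.05). No paired analysis was possible because each group held 1 array.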
